A study of Spirodela polyrhiza with 13 samples.

Results

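Stage 6 fronds of the greater duckweed, Spirodela polyrhiza, were compared with stage 5 fronds, the last step of a developmental series that ran from stage 2 to stage 6. The comparison took all libraries of these stages, 2 of stage 6 and 2 of stage 5, out of 13 in the series. It covered the 15162 of 19623 listed genes that reached at least 1 FPKM in at least 2 of these 4 libraries. FPKM counts the sequenced fragments of a gene relative to its length and to the total of its library. All plants were wild-type, and the libraries held messenger RNA of whole frond tissue from plants kept under the same growth conditions. Stages 5 and 6 differed by developmental stage alone as far as the labels say, and no age in days was used here. Whether libraries of 1 stage came from separate cultures is not in the labels. The p-values then reflect only how these libraries vary, and that variation may be technical.

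A frond is the flattened, leaf-like body of a duckweed, which floats on air held in aerenchyma, a tissue of large gas-filled spaces between cells. The title of the series ties plant hormones to the layout of this tissue. In many plants, aerenchyma arises by separation of cells along their walls or by death of cells, and ethylene is a hormone long known to promote it. Gene groups for hormones, wall enzymes, proteases and photosynthesis could not be looked up, because the table gives bare gene IDs, and no annotation was used here. The frond label could not be checked against marker genes for the same reason. Genes are therefore described by ID, level and pattern, and only a few IDs are named. In whole tissue, fewer cells of a type and less RNA per cell cannot be told apart.

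Library totals, read from the FPKM values themselves, were 7724315 and 8884349 reads at stage 6 and 7708200 and 8773837 reads at stage 5. At the median coding length of the tested genes, 1026 bases, 1 FPKM stood for 7.91 to 9.12 reads in the 4 libraries. The correlation of log2(FPKM + 1) across genes was 0.982 within stage 6 and 0.986 within stage 5. Stage 6 replicate 1 correlated with the stage 5 libraries at 0.961 and 0.962, and stage 6 replicate 2 at 0.967 and 0.973. Stage 6 replicate 1 was thus the farther of its stage from stage 5, and it was also the farther from stage 4 (mean r of 0.875, against 0.890 for replicate 2). Results that rest on it are given with and without it.

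Stage 6 fronds differed from stage 5 fronds in 2025 genes, 13.4% of those tested, by limma with Benjamini-Hochberg adjusted p under 0.05. Of these, 862 were higher at stage 6 (5.69% of the genes tested) and 1163 were lower (7.67%). Rises were larger than falls, with a median change of 0.87 on the log2(FPKM + 1) scale among rises and -0.58 among falls. Changes of at least 2-fold on that scale comprised 318 rises and 65 falls, and those of at least 4-fold 29 rises and no fall. The 4 libraries separated by stage without overlap for 8861 genes (58.4%), of which 3767 were higher and 5094 lower at stage 6. All 2025 called genes were among them. By exact permutation, 2 libraries separate from 2 others in this way with a probability of 0.333 where stage makes no difference. Separation of a single gene is therefore weak evidence.

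The balance of rises and falls depended on how the libraries were scaled. As deposited, 42.6% of calls were rises, and after scaling each library by its median ratio 59.1% were, with 1152 rises and 796 falls. Over all tested genes the median log2 change was 0.02 with that scaling and -0.05 as deposited. Of the genes called, 1657 were called under both scalings, none with opposite signs. The smallest called rise and fall as deposited, 0.33 and -0.28, were larger in size than the 0.07 by which scaling moved the median. A turned sign was therefore hardly possible. The larger size of rises held under both scalings, with 434 rises and 47 falls of at least 2-fold after scaling. The number of called genes was 310 without stage 6 replicate 1, 587 and 645 without stage 5 replicates 1 and 2, and 885 in a fit of the 4 libraries alone. Without stage 6 replicate 1 the balance also turned, to 183 rises and 127 falls, of which 141 and 28 were of at least 2-fold. Without stage 6 replicate 2, 662 genes rose and 1281 fell, and falls of at least 2-fold numbered 172, against 319 rises. Without stage 5 replicate 2 rises and falls were nearly even, at 322 and 323, and the fit of the 4 libraries alone had 62.3% rises.

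Stage 6 replicate 1 lay farther from the stage 5 mean than replicate 2 for 61.4% of tested genes. Among called falls, 77.3% were deeper in stage 6 replicate 1, with a median difference from the stage 5 mean of -0.67, against -0.49 in replicate 2. Among called rises, 56.5% were larger in replicate 1, with medians of 0.87 and 0.82. As deposited, the depth of the falls therefore differed between the stage 6 libraries more than the height of the rises did. The median FPKM of tested genes was 22.8 in replicate 1 and 23.3 in replicate 2, and the part of scaling in this contrast was not tested.

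**Figure D1:**
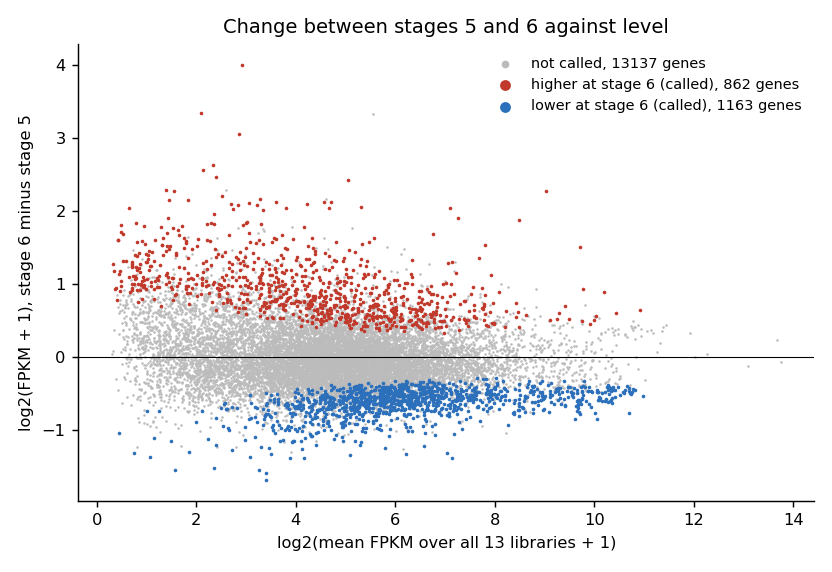
Each point is 1 of the 15162 tested genes, with the log2 of its mean FPKM plus 1 over all 13 libraries on the horizontal axis and the change in log2(FPKM + 1), stage 6 minus stage 5, on the vertical axis. Red points are the 862 called rises, which extend above a log2 change of 2, and blue points are the 1163 called falls, none of which reaches -2.

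Counting calls of any size, rises outnumbered falls among genes of low mean level over the series. The reverse held among genes of high mean level. Tested genes were split into quartiles of their mean FPKM over all 13 libraries. Most of these libraries precede stage 6, so the direction of a gene's change over the series enters its quartile. Median FPKM in the stage 2 libraries was 11.3 to 12.4 for called rises and 79.5 to 82.3 for called falls. In stage 6 replicates 1 and 2 it was 35.5 and 33.4 for rises, and 33.7 and 37.9 for falls. A split by level at stage 6 was not tested. In the lowest quartile, between 0.235 and 10.9 FPKM, 309 genes rose and 64 fell. In the second quartile, up to 27.0 FPKM, 194 rose and 173 fell. The third quartile, up to 59.4 FPKM, had 171 rises and 316 falls. In the highest quartile, 188 rose and 610 fell, so that 16.1% of its genes were called lower at stage 6, against 7.67% of all tested genes. Among changes of at least 2-fold, rises outnumbered falls in every quartile. There were 197 such rises and 22 such falls in the lowest quartile and 65 and 21 in the second. The third had 35 and 13, and the highest 21 and 9, so nearly all of the 610 falls there were smaller than 2-fold.

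In all calls, the direction of the lowest and highest quartiles was the same under both scalings and without each of the 4 libraries. That of the middle quartiles was not. With median ratio scaling the lowest quartile had 394 rises and 53 falls, and the highest quartile 260 rises and 409 falls, but the third quartile turned to 245 rises and 210 falls. Without stage 6 replicate 1 the lowest quartile had 89 rises and 9 falls, and the highest 35 rises and 80 falls, with 24 and 23 in the third. Leaving out stage 6 replicate 2 gave 202 and 71 in the lowest and 163 and 662 in the highest, and turned the second quartile to 166 rises and 207 falls. Leaving out stage 5 replicate 1 gave 83 rises and 23 falls in the lowest quartile and 39 and 280 in the highest. Leaving out stage 5 replicate 2 gave 122 and 13 in the lowest and 66 and 175 in the highest.

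**Figure D2:**
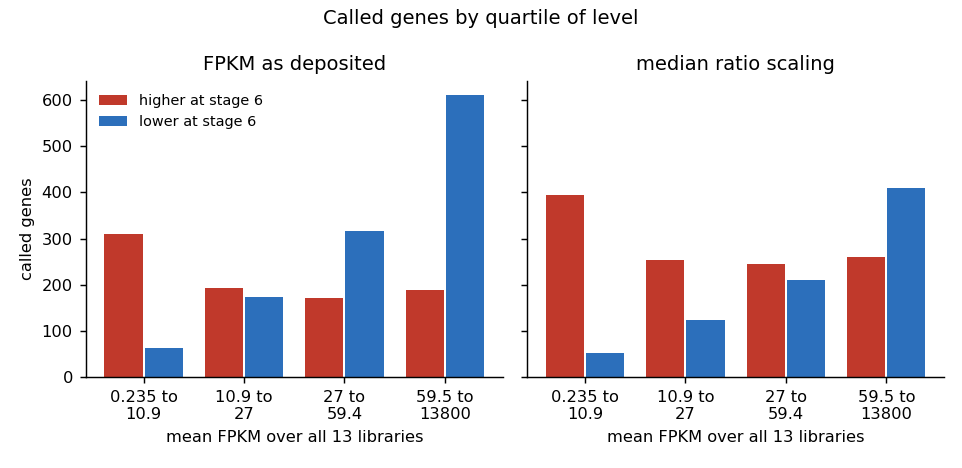
Bars give the number of genes called higher (red) or lower (blue) at stage 6 in each quartile of mean FPKM over all 13 libraries, as deposited on the left and after median ratio scaling on the right. Rises outnumber falls in the lowest quartile (309 against 64 as deposited) and falls outnumber rises in the highest (188 rises against 610 falls), under both scalings.

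Coding length varied less between the classes than level did. The median coding length was 945 bases for rises, 975 for falls and 1038 for genes not called. In the shortest quartile of genes, up to 612 bases, 5.92% rose and 8.38% fell, and in the longest quartile, above 1570 bases, 4.56% rose and 6.96% fell. Of the rises of at least 2-fold, 111 came from the shortest quartile and 45 from the longest. Short genes have fewer reads at a given FPKM, and the part of depth in this gradient was not tested.

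The most abundant transcripts shifted between stages 5 and 6, and their share of reads had changed before that step too. The 100 genes with most reads held 19.1% and 17.9% of reads at stage 6, against 15.8% and 16.2% at stage 5. The 10 genes with most reads held 4.86% and 4.58% at stage 6, against 3.79% and 3.75% at stage 5. The share of the top 100 had been 11.4% to 11.6% at stage 2 and 11.9% to 13.3% at stage 4. That of the top 10 had been 2.32% to 2.42% and 2.58% to 3.04%. Both shares were thus already higher at stage 5 than at stage 2 or stage 4, and the increase was not confined to the last step. For both shares no stage 5 library reached the stage 6 values. An exact permutation test, two-sided, returned p = 0.333, the lowest possible with 2 libraries a stage. Of the 100 genes with the highest mean FPKM at stage 6, 79 were also among the 100 highest at stage 5. The other 21 places on each list were taken by different genes.

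More genes crossed 1 FPKM upwards than downwards. Genes at or above 1 FPKM numbered 14981 and 15146 at stage 6, against 14886 and 14933 at stage 5. There were 143 genes at or above 1 FPKM in both stage 6 libraries and below it in both stage 5 libraries. The opposite pattern was seen for 64 genes. Of the 143 genes 58 were called as rises, and of the 64 genes 11 were called as falls. Over all tested genes, 5.69% were called as rises and 7.67% as falls. At the median coding length 1 FPKM stood for 7.91 to 9.12 reads, so most of these crossings rest on few reads and were not called. Complete switches were rare. Of 341 genes with reads at stage 6 and none at stage 5, the highest had 46 reads over both stage 6 libraries. Of 258 genes with reads at stage 5 and none at stage 6, the highest had 9 reads. Only 1 gene had at least 5 FPKM in both stage 6 libraries and at most 3 reads over both stage 5 libraries, and no gene showed the reverse.

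The 2 rises with the largest gain in FPKM were already abundant at stage 5, which a choice by difference in FPKM favors. Of the 318 rises of at least 2-fold, 197 were in the lowest quartile of mean FPKM over all 13 libraries. Spipo14G0033900 (coding length 372 bases) was at 4214 and 2756 FPKM in the stage 6 libraries, against 1662 and 2027 FPKM in the stage 5 libraries. The lowest stage 6 library lay above both stage 5 libraries, but the stage 6 libraries were themselves far apart. Its mean was 3485 ± 1030 FPKM at stage 6 and 1844 ± 258 FPKM at stage 5 (SD, n = 2 each). The log2 change was 0.89 (SE 0.26, adjusted p = 0.0376, limma). By mean FPKM it ranked 19 at stage 6 and 46 at stage 5. Its earlier means were 205, 557 and 737 FPKM at stages 2, 3 and 4 (n = 3 each), so its mean was higher at each successive stage. The call was lost without stage 6 replicate 1 (log2 change 0.59, adjusted p = 0.287, limma) and with quantile normalization (0.33, adjusted p = 0.334, limma). Of 15 alternatives 6 lost the call, with adjusted p (limma) from 0.062 to 0.334.

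Spipo6G0071500 (183 bases) was at 2593 and 2230 FPKM at stage 6, against 814 and 878 FPKM at stage 5. Both stage 6 libraries were well above both stage 5 libraries and above every earlier library, the highest of which had 696 FPKM. The log2 change was 1.51 (SE 0.29, adjusted p = 0.00999, limma), resting on 7291 reads at stage 6 and 2559 reads at stage 5. Its stage means before that lay between 428 and 544 FPKM from stage 2 to stage 4, a change that was not called (log2 change 0.34, adjusted p = 0.273, limma). It ranked 38 by mean FPKM at stage 6 and 199 at stage 5. With 1 library fewer the log2 change stayed at 1.40 or above, while the call was lost without stage 6 replicate 1 (adjusted p = 0.0722, limma) and without stage 5 replicate 1 (adjusted p = 0.054, limma).

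The 2 falls with the largest loss in FPKM had peaked at stage 5. Spipo0G0159400 (408 bases) was at 718 and 1176 FPKM at stage 6, against 1708 and 1604 FPKM at stage 5. At stages 2 to 4 its 9 libraries lay between 807 and 1124 FPKM, so that the stage 6 mean of 947 ± 324 FPKM (SD, n = 2) was at their level, while both stage 5 libraries stood above all others. It fell by 0.85 on the log2 scale (SE 0.19, adjusted p = 0.0166, limma). Spipo0G0145000 (657 bases) was at 709 and 1172 FPKM at stage 6, against 1506 and 1600 FPKM at stage 5, and between 798 and 1071 FPKM in the 9 earlier libraries. It fell by 0.77 on the log2 scale (SE 0.20, adjusted p = 0.0251, limma). Stage 6 replicate 1 was the lower library for both genes, and without it the changes were -0.49 and -0.40 with adjusted p of 0.13 and 0.211 (limma). Both calls were also lost without either stage 5 library (adjusted p from 0.0572 to 0.104, limma) and in the fit of the 4 libraries alone (0.0658 and 0.0845, limma).

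**Figure D3:**
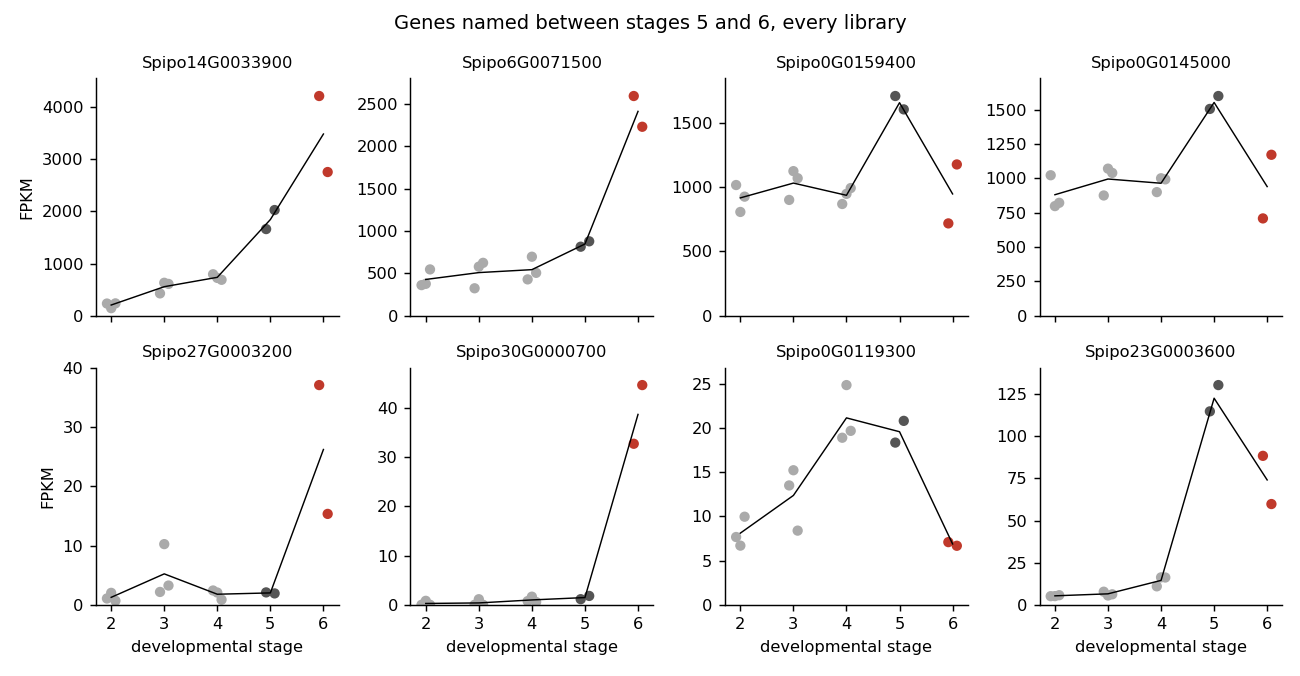
Points are the FPKM of every library for 8 genes, by developmental stage, with stage 6 in red, stage 5 in dark grey and earlier stages in light grey, and lines join the stage means. The upper row shows the called genes with the largest gains and losses in FPKM between stages 5 and 6. The lower row shows the genes with the most positive and most negative differences from the change between stages 3 and 4. These were taken among genes also called between stages 5 and 6, with at least 5 FPKM at the higher stage. Each vertical axis starts at 0 and has its own scale.

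The genes called between stages 5 and 6 were then followed through stages 2 to 4. The levels at these stages did not enter the change that was called, but their libraries helped choose the genes through the spread that the fit estimates over all stages. Over all tested genes, 40.5% were called between stages 2 and 4. From stage 2 to stage 4, 47.2% of the 862 rises were also called as rises and 4.52% as falls, against 18.1% and 22.4% of all tested genes. Of the 1163 falls, 59.1% were also called as falls from stage 2 to stage 4 and 4.73% as rises. The median change from stage 2 to stage 4 was 0.39 on the log2 scale for the rises and -0.38 for the falls, beside -0.06 for all tested genes. A gene of low spread is more easily called in both comparisons, in either direction. In an alternative chosen after seeing the data, the genes were called in a fit of stages 5 and 6 alone and the early change in a fit of stages 2 to 4 alone. Of 551 rises so called, 51.7% were also early rises, beside 17.9% of all tested genes. Of 334 falls, 34.4% were also early falls, beside 22.7% of all tested genes.

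For the rises this share varied little with the stage 5 or stage 6 library left out, between 40.1% and 47.5%, beside 17.9% to 18.1% of all tested genes. For the falls it was 31.5% without stage 6 replicate 1, beside 22.7% of all tested genes, and 69.0% without stage 6 replicate 2. Without stage 5 replicates 1 and 2 it was 62.1% and 44.3%. With median ratio scaling the shares were 48.8% of rises and 52.3% of falls, beside 20.2% and 18.8% of all tested genes.

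The share of reads held by these genes was taken in every library. The 862 rises held between 2.69% and 2.98% of reads in the stage 2 libraries, 3.59% to 4.20% at stage 3, 4.03% to 4.66% at stage 4, 5.12% and 5.18% at stage 5, and 8.96% and 8.21% at stage 6. The 1163 falls held 20.4% to 21.1% at stage 2, 17.0% to 18.0% at stage 3, 16.0% to 17.2% at stage 4, 14.9% and 15.4% at stage 5, and 9.65% and 10.9% at stage 6. Values at stages 5 and 6 follow from how the genes were chosen. For either group, stage 4 libraries were apart from stage 2 libraries and overlapped with stage 3 libraries. The step from stage 4 to stage 5 shares its stage 5 libraries with the comparison that chose the genes. At that step the median log2 change was 0.12 for the rises, -0.23 for the falls and -0.17 for all tested genes. There, 28.0% of the rises were called as rises and 20.2% as falls, and 7.82% of the falls were called as rises and 37.6% as falls. Of all tested genes, 15.4% rose and 31.0% fell at that step.

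**Figure D4:**
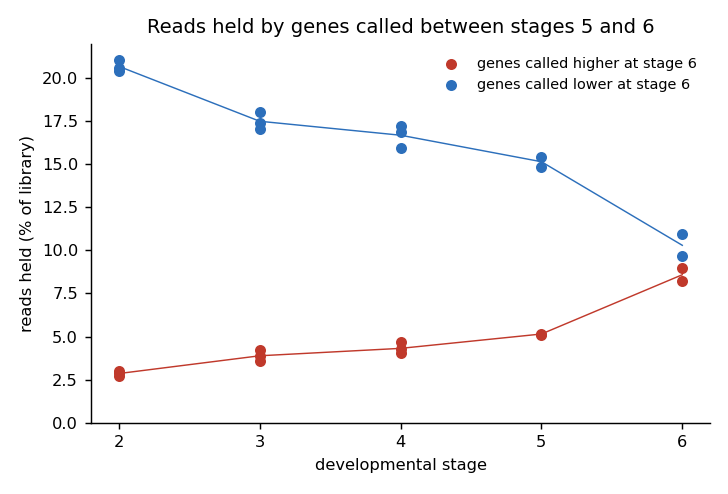
Each point is the share of a library's reads held by the 862 genes called higher (red) or the 1163 genes called lower (blue) at stage 6 than at stage 5, for all 13 libraries by developmental stage, and lines join stage means. The genes were chosen for their change between stages 5 and 6, and the rises held at least 4.03% of reads at stage 4 and at most 2.98% at stage 2.

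A minority of genes turned. Among the 862 rises, 39 had been called as falling from stage 2 to stage 4, and among the 1163 falls 55 had been called as rising. The stage of the highest and the lowest mean is partly fixed by the call itself. A called rise cannot be highest at stage 5 or lowest at stage 6. A called fall cannot be highest at stage 6 or lowest at stage 5. The highest mean was at stage 6 for 87.0% of the rises, beside 3792 of the 15162 tested genes, and 112 rises had been higher at stage 2, 3 or 4. The lowest mean was at stage 6 for 94.9% of the falls, beside 43.5% of all tested genes. The highest mean was at stage 2 for 74.8% of the falls, beside 37.3% of all tested genes. A peak at stage 5, as in both genes with the largest loss, was seen for 11.5% of the falls, close to the 10.3% of all tested genes. A low point at stage 5 was seen for 21.1% of the rises and 16.5% of all tested genes. Since 43.5% of all tested genes were lowest at stage 6, which no called rise can be, these 2 shares are not on a like base and show no excess.

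**Figure D5:**
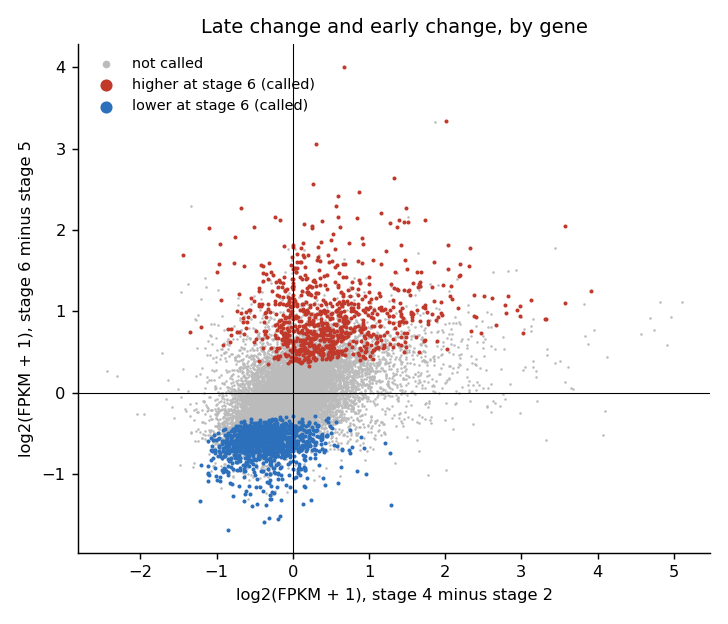
Each point is a tested gene, with its change in log2(FPKM + 1) from stage 2 to stage 4 on the horizontal axis and from stage 5 to stage 6 on the vertical axis, which share no library. Called rises (red) lie mostly to the right of 0, with a median early change of 0.39, and called falls (blue) mostly to the left, with a median of -0.38.

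The last step was set against the step from stage 3 to stage 4, the nearest one that shares no library with it, by a test of the difference between both changes. The change differed for 460 genes, 3.03% of those tested (limma, adjusted p under 0.05). It was more positive at the last step for 246 (1.62%), of which 189 were called rises between stages 5 and 6. It was more negative for 214 (1.41%), of which 171 were called falls. The difference contains the last change itself, so its sign and that of the call are not independent. On simulated data with few changed genes this test found 19% of 2-fold changes, a share that need not hold here. Genes outside the 460 are not shown to change alike at both steps. The count rested on single libraries. Leaving out stage 6 replicate 1 gave 62, and leaving out stage 5 replicate 1 or replicate 2 gave 71 or 120. It was 105 when stage 4 replicate 2 was dropped, and 189 or 180 when stage 3 replicate 2 or replicate 3 was. Dropping stage 3 replicate 1 gave 706, and library weights gave 1120.

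Among genes also called between stages 5 and 6, the 2 named for the most positive differences were at low levels until stage 5. Spipo27G0003200 (1365 bases) was at 37.1 and 15.3 FPKM at stage 6, against 2.09 and 1.92 FPKM at stage 5, from 577 reads at stage 6 and 45 at stage 5. Both stage 6 libraries were above all earlier ones, the highest of which had 10.2 FPKM at stage 3. Its log2 change between stages 5 and 6 was 3.05 (SE 0.53, adjusted p = 0.00661, limma), and it exceeded the change from stage 3 to stage 4 by 4.04 (SE 0.69, adjusted p = 0.0136, limma). Without stage 6 replicate 1, the higher library, the change was 2.44 (adjusted p = 0.0617, limma) and the difference 3.43 (adjusted p = 0.0612, limma). Leaving out stage 5 replicate 1 or replicate 2 put the adjusted p of the difference (limma) at 0.0532 or 0.0501.

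Spipo30G0000700 (570 bases) was at 32.7 and 44.6 FPKM at stage 6, against 1.14 and 1.8 FPKM at stage 5, from 370 reads at stage 6 and 14 at stage 5. No library of stages 2 to 4 exceeded 1.65 FPKM, and 4 of these 9 libraries were at 0. Its log2 change between stages 5 and 6 was 4.00 (SE 0.41, adjusted p = 0.00118, limma), a call lost under 1 of 15 alternatives, a pseudocount of 0.01 (adjusted p = 0.179, limma). The difference between the steps was 3.41 (SE 0.53, adjusted p = 0.0105, limma). With so few reads at stages 3 and 4 it hung on the pseudocount, and was 2.54 with a pseudocount of 0.1 (adjusted p = 0.391, limma), 0.52 with 0.01 (adjusted p = 0.946, limma) and 2.47 in the voom model on recovered reads (adjusted p = 0.269, limma).

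The 2 genes named for the most negative differences had been higher at stage 4 than at stage 2 and fell at the last step. The rule favors this pattern, since it required a call between stages 5 and 6. The difference also subtracts the change from stage 3 to stage 4. Spipo0G0119300 (219 bases) was at 7.09 and 6.68 FPKM at stage 6, against 18.4 and 20.8 FPKM at stage 5. Its earlier means were 8.11, 12.4 and 21.2 FPKM at stages 2, 3 and 4, so its stage 6 level was close to that of stage 2. It fell by 1.38 on the log2 scale between stages 5 and 6 (SE 0.25, adjusted p = 0.00682, limma), and the difference between the steps was -2.14 (SE 0.32, adjusted p = 0.00965, limma). The fall rested on 25 reads at stage 6 and 71 at stage 5, and neither call was lost under any alternative run.

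Spipo23G0003600 (1425 bases) was at 88.4 and 59.8 FPKM at stage 6, against 115 and 130 FPKM at stage 5, and at means of 5.31, 6.50 and 14.5 FPKM at stages 2, 3 and 4. It was thus much higher at stage 5 than before, and at stage 6 it stayed above every library of stages 2 to 4. The difference between the steps was -1.78 (SE 0.28, adjusted p = 0.0114, limma). Its log2 change of -0.74 between stages 5 and 6 (SE 0.22, adjusted p = 0.0425, limma) was near the threshold. The call was lost under 12 of 15 alternatives, with adjusted p (limma) from 0.0525 to 0.222, among them each of the 4 with 1 library left out.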

How the data were processed

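The tools named by the submitters' processing notes are HISAT2 2.2.1, HTSeq 0.11.3, Trimmomatic 0.39, Picard 2.25.5 and CASAVA 1.8.2. The authors deposited 1 table of FPKM values, 1 column per library, each named by a sample title. Not given in the sources used here are the genome build, annotation, strand setting and any further scaling. Overlapping genes and near-identical copies can therefore share reads, and FPKM is relative to the library total.

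Reads, library totals and coding lengths were recovered from the steps of the FPKM values. All values (100%) came out whole within 0.001 reads, and 100% of 1976 implied lengths were multiples of 3. Both were criteria by which totals and lengths were chosen, so they show that a solution was found and are not independent checks. On reads of 17287 genes simulated from the recovered reads and lengths, 99.5% of genes and 13 library totals were returned exactly. Recovered reads served for depth and for the voom alternative.

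Stages were compared with limma 3.58.1 in R 4.3.3, with a mean-variance trend, on log2(FPKM + 1), 1 mean per stage over all 13 libraries and 8 residual degrees of freedom. A change on this scale understates that of genes near 1 FPKM. P-values were adjusted by Benjamini-Hochberg over 15162 genes. In simulated counts for stage 6 against stage 5, 71% of 100 genes changed 2-fold and 15% of 100 changed 1.5-fold were called, with 5 unchanged genes. For the difference of steps, 19% and 2% were called. The simulation had a set spread (dispersion 0.02) and few changed genes, while 2025 genes were called in the data. Its shares are therefore not the power of the tests run.

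Without gene names, the rule named the 2 rises and 2 falls with the largest difference in mean FPKM among called genes whose libraries did not overlap. For the difference of steps it named the 2 most positive and 2 most negative genes that were also called between stages 5 and 6, with at least 5 FPKM at the higher stage. The comparison, lists and rules were chosen with earlier results of these data known.

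Equal replicate numbers were not taken as pairs. Deviations of libraries with the same number correlated from -0.25 to 0.389, with 7 of 23 pairs above 0.1.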

Additional observations from a re-analysis of the deposited data

Results flagged for a closer look

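The change between stages 5 and 6 differed from that between stages 3 and 4 for 460 genes by a test of the difference itself (limma, adjusted p under 0.05), and for the named genes the log2 difference was 4.04 for Spipo27G0003200, 3.41 for Spipo30G0000700, -2.14 for Spipo0G0119300 and -1.78 for Spipo23G0003600. The difference for Spipo30G0000700 was not called with smaller pseudocounts. For Spipo6G0071500, named for its gain in FPKM, the difference was 1.38 (SE 0.38, adjusted p = 0.0657, limma), and for Spipo14G0033900, Spipo0G0159400 and Spipo0G0145000 the adjusted p (limma) was 0.45, 0.133 and 0.133. No cause of these differences was tested.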

How the results depend on the processing

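The number of genes called between stages 5 and 6 stayed within 1.5 times 2025 under 10 alternatives, from 1400 with library weights to 2431 with a replicate block. It was 885 in the fit of the 4 libraries alone, 383 with the 2-fold minimum, by construction fewer, and 310 to 1943 with 1 library left out, where the lone library left at that stage is taken to vary as other stages do. The difference of steps had 460 calls, 1120 with library weights, 259 with the 2-fold minimum, 571 with a replicate block and 62 to 706 with 1 library left out; the cause was not tested. The share of falls that also fell from stage 2 to stage 4 lay between 31.5% and 69.0% with 1 library left out, and that of rises between 40.0% and 47.5%. With separate fits for both steps, the shares were 34.4% and 51.7%. These alternatives for the shares were chosen after seeing the data. Of the 885 genes called in the fit of the 4 libraries alone, 677 were also among the 2025. No gene called both as reported and under an alternative changed sign between stages 5 and 6. For called genes the 4 libraries did not overlap between stages, so leaving out a library or changing the pseudocount could not turn that sign. The same holds for the named genes at that step. Of 200 alternative values of named genes, 164 kept their call, 36 lost it and none reversed. No label ties equal replicate numbers, and the mean correlation of deviations was highest with the own number for 8 of 13 libraries. With about 8 or 9 reads at 1 FPKM for the median gene, changes of the rarest genes are limited by counting.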
